A study of Mus musculus with 34 samples.

Results

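The 10 genes described here, read in mouse macrophages, were listed together as adaptors and brakes of signalling to the transcription factor NF-kappaB. They are Tnfaip3, Tnip1, Tnfaip2, Traf1, Traf2, Birc3, Birc2, Peli1, Ripk2 and Irak1. For Tnfaip2 no role in that signalling is described here. A probe set belonged to the set when the platform's probe-to-gene table gave it a member's symbol. By this rule 9 of the 10 genes had a probe set, 10 probe sets among 12488, and the 9 genes stood among 8252 genes with a probe set of a single symbol. Ripk2 was not listed in that table, so no value is given for it. Birc2 had 2 probe sets, and the brighter one stands for the gene. All 9 passed the filter of a signal of at least 200 on at least 2 arrays.

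The cells were bone marrow-derived macrophages, a primary culture grown from mouse marrow for 7 days in CSF-1. Resting cells (4 arrays) received nothing and carry no genotype in their labels, which name L-cell conditioned medium as the CSF-1 source. Wild-type, IL-10-/- and IL-6-/- cultures all received LPS, the bacterial ligand of Toll-like receptor 4, at 100 ng/ml. LPS was given alone or with IL-10 at 10 ng/ml for 45 or 180 min, and with IL-6 at 2 ng/ml for 45 min. Each stimulated group held 2 arrays called biological replicates, and IL-6-/- under LPS alone had just 1 at either time. The number of mice is not stated in the labels, so a p-value measures the spread between arrays.

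When LPS or TNF engages its receptor, adaptors and ubiquitin ligases build ubiquitin chains that recruit the kinases which free NF-kappaB. Irak1 is a kinase of the Toll-like and IL-1 receptor complex, and Peli1 (Pellino) is a ubiquitin ligase that acts beside it. Traf2, Birc2 (cIAP1) and Birc3 (cIAP2) serve the TNF receptor complex, where Traf1 joins Traf2. Tnfaip3 encodes A20, a ubiquitin-editing enzyme that takes the chains down, and Tnip1 encodes ABIN-1, which binds A20. Many of these genes are themselves NF-kappaB targets, so the pathway raises its own brakes.

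Promoter sequences came from RefSeq (GRCm38.p6), as windows from 250 bases before to 50 after a transcript start, and 9 of the 10 genes had one. On both strands, a match to the 10-base kappaB consensus was present in 8.46% of all 32851 windows, or in 1 or more windows of 9.55% of 27025 genes. It was present in a window of 4 members: Tnfaip3, Tnip1, Tnfaip2 and Irak1. A match is a run of letters and not a shown binding site. The sequences of the A20 gene and of its partner are given, since both genes rose after LPS and both windows held several matches. The capitals mark the matches. The Tnfaip3 stretch is chr10:19015411-19015660 and the Tnip1 stretch is chr11:54962957-54963190, both on the minus strand, 5′ to 3′, ending at the edge of the annotated gene.
Tnfaip3: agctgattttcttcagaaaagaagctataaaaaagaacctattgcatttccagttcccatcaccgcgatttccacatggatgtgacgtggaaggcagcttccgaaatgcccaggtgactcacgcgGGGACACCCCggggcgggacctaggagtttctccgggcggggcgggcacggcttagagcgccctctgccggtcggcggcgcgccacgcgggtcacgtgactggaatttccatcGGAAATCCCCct
Tnip1: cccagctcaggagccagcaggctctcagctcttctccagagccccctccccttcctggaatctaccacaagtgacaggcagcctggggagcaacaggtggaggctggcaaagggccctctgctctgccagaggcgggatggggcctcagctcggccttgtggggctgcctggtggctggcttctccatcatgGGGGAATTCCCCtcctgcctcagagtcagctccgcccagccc
Tnfaip3 held 2 matches, 1 of them starting 12 bases before the transcript start, and its other window, at a downstream start, held 0. Tnip1 held 3 overlapping matches in a single palindrome that begins 58 bases before the start. The spaced palindrome TTCNNNGAA, which STAT factors read, was searched in the same way and occurred in 8.3% of windows. Among the members it occurred in Tnip1 alone, as TTCCTGGAA 199 bases before the start, chr11:54963131-54963139.

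The values are MAS5 signals, a linear measure of brightness that the authors had scaled to the same trimmed mean on every array. Changes are given as log2 of the signal plus 50, with the standard error, and understate the change of dim probe sets. A gene was called when limma's adjusted p, taken over all 8224 tested probe sets, was under 0.05. Counts at an unadjusted p were taken for the members alone, so the shares of called probe sets are no background for them. A gene named at that level alone is described by its values and is not a call, and chance was not excluded for it. The macrophage markers Lyz2, Ctss, Csf1r, Cd14 and Cd68 gave 10621 or more on every array at their brightest probe set. Others of the 10 macrophage genes were dimmer, with Adgre1 from 3181, Mrc1 from 1427, Itgam from 614.7 and Aif1 from 169.3 upward, and Fcgr3 between 61.9 and 226.8. Of the lymphocyte genes, Cd3e, Cd3g and Cd3d were at 117.1 or less, Cd4 lay between 270.8 and 767.5, and Cd79a, Pax5 and Ms4a1 reached 497.9, 498.4 and 458. The 9 lymphocyte genes summed to between 1110 and 1932 at rest and between 1118 and 1977 on the stimulated arrays. The Il10 and Il6 probe sets gave signal in their own knockouts (Il10 up to 10596 in IL-10-/-, Il6 up to 8400 in IL-6-/-). Their position against the deletions is not known here, so they check neither genotype.

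By their calls, the members fell into groups over time. Tnfaip3 rose by 45 min and its later change did not pass. In wild type that change was 0.84 ± 0.61, no smaller than the later rise of Birc3 but with a wider standard error. Tnfaip2, Birc3 and Peli1 rose by 45 min and again by 180 min. Tnip1 and Traf1 rose between 45 and 180 min, and Irak1 fell in that interval. Traf2 and Birc2 did not pass against resting cells at either time. Both passed as higher from 45 to 180 min with IL-10 added, over the mean of the genotypes. Birc2 also passed for that step in IL-10-/- under LPS alone, and its calls were lost in some alternative fits.

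**Figure D1:**
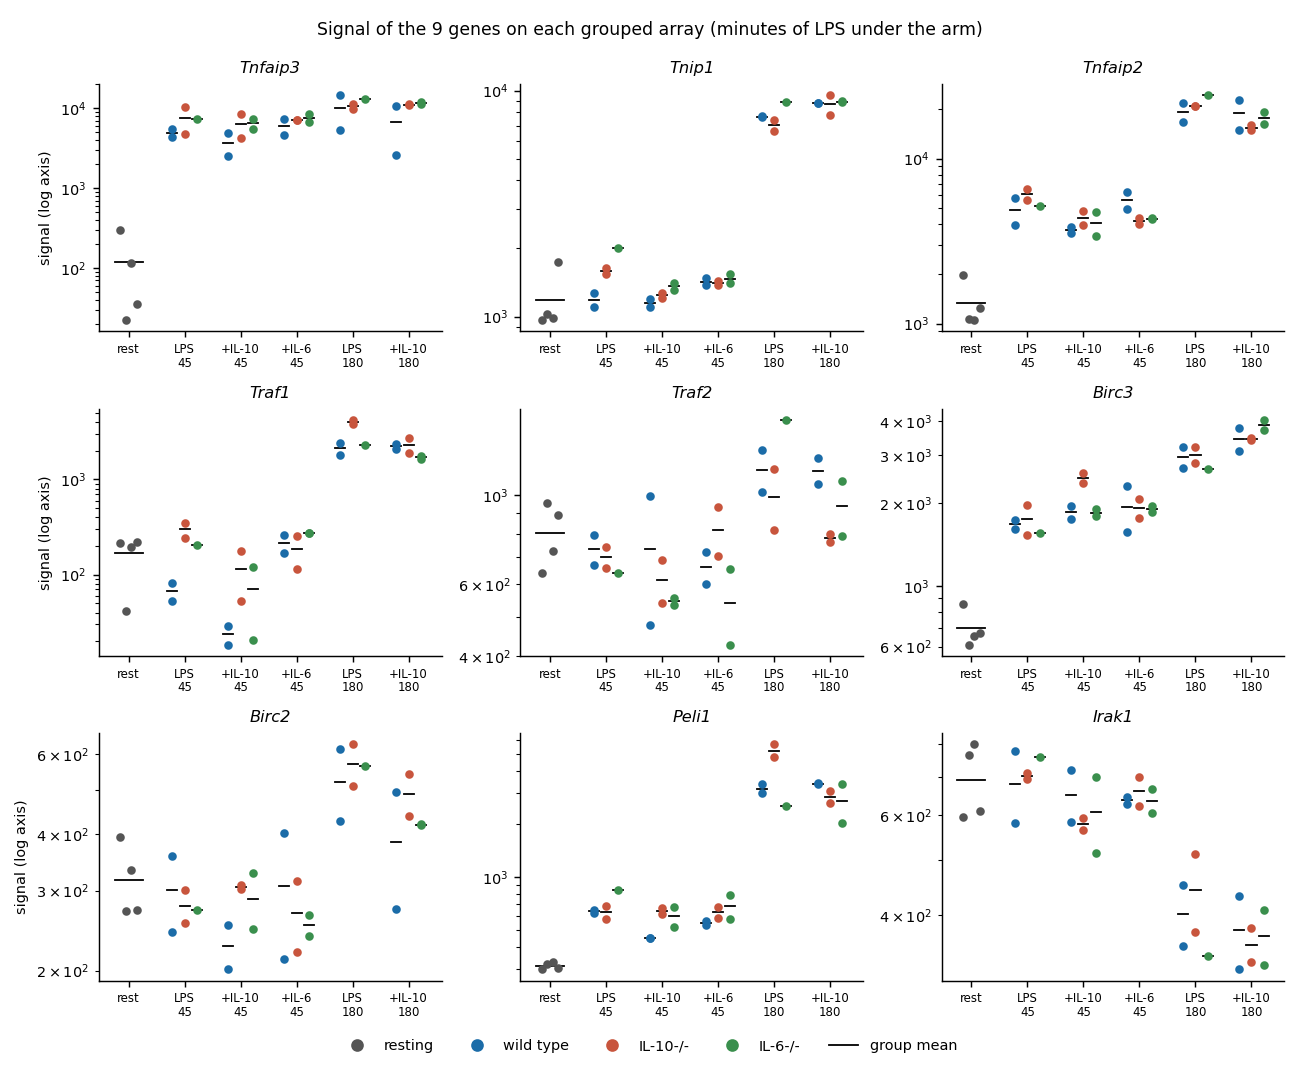
Signal of each of the 9 genes on every grouped array (log axis), with resting cells at the left, then the LPS arms at 45 and 180 min. Points are arrays, coloured by genotype, and bars are group means. Tnip1, Tnfaip2, Traf1, Birc3 and Peli1 sit higher on all 11 arrays at 180 min than on all 17 at 45 min, and Irak1 sits lower.

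Across every arm and genotype, 6 of the 9 genes had no overlap between the 11 arrays at 180 min and the 17 arrays at 45 min, against 9.73% of tested probe sets. Of these, 5 were higher at 180 min and 1, Irak1, was lower. Between the 45-min arrays and the 4 resting arrays 4 genes were apart, all higher, against 9.93% of probe sets. Between the 180-min arrays and resting 7 were apart, 6 of them higher, against 23.9%. These counts describe the arrays and set arms of different make-up side by side, since IL-6 was given at 45 min alone.

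Of the 9 genes, 4 were higher after 45 min of LPS in wild type than at rest, 0 were lower and 5 did not pass, where 16.7% of all tested probe sets were called. Their median log2 change was 0.05, and that of all tested probe sets 0.03. After 180 min 6 were higher, 1 was lower and 2 did not pass, where 33.8% of probe sets were called. The median was then 2.69, against -0.09 over all probe sets. Resting and stimulated cells also differed in their stromal transcripts, whose 14 genes summed to between 1598 and 3730 at rest and between 7079 and 13300 on the stimulated arrays. Of the 11 stromal genes tested, 10 were higher at 45 min and 9 at 180 min than at rest, Lox and Col1a2 among them. Of 8 neutrophil genes tested 3 were lower at both times, and of each of the lymphocyte, dendritic, erythroid and mast cell lists at most 1 was called in any direction. Their part in the differences from rest was not tested, and a change in the mix of cells and a change in RNA per cell cannot be told apart in such bulk samples. Between 45 and 180 min the median change of the stromal genes was -0.24 in wild type and 0.01 in IL-10-/-.

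**Figure D2:**
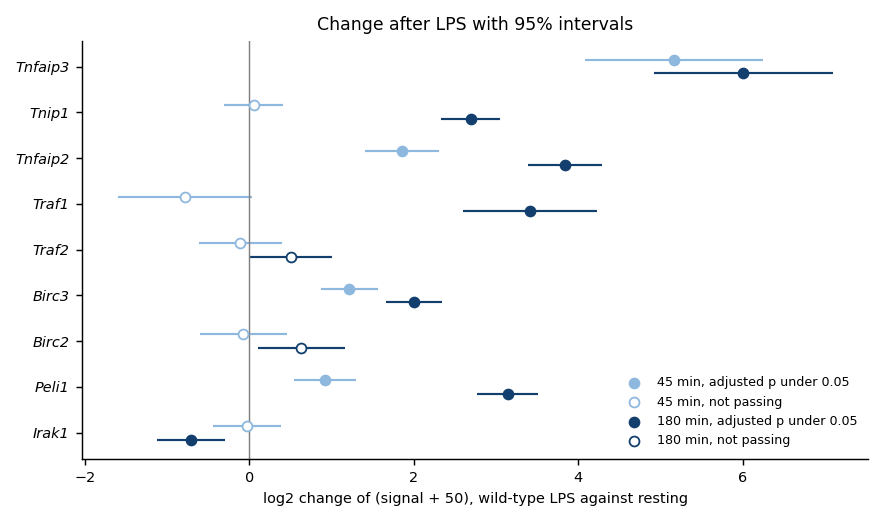
Log2 change of signal plus 50 in wild-type macrophages after 45 min (pale) and 180 min (dark) of LPS against the 4 resting arrays, with 95% intervals. Filled points passed an adjusted p of 0.05. Tnfaip3 lies at 5.17 and 6.01, while Tnip1 and Traf1 lie near or below 0 at 45 min and at 2.69 and 3.41 at 180 min.

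Tnfaip3, the gene of the brake A20, gave signals of 303.8, 22.4, 117.4 and 35.9 in the 4 resting arrays. In wild type it gave 5554 and 4361 after 45 min of LPS, and 14576.5 and 5386 after 180 min. Resting arrays were low throughout and every stimulated array of every arm lay above them, from 2530.5 upward. The rise over rest was 5.17 ± 0.53 at 45 min (adjusted p = 9.65e-08, limma) and 6.01 ± 0.53 at 180 min (adjusted p = 2.38e-09). Between 45 and 180 min the change was 0.84 ± 0.61 in wild type (95% interval -0.41 to 2.10), which did not pass, and the 2 groups overlapped. In IL-10-/- it was 0.58 ± 0.61. The second wild-type array was the lower of its pair in all 5 arms, with 5386 under LPS and 2603 with added IL-10, whereas the 4 IL-10-/- arrays at 180 min lay between 9915 and 11305.5. Over the mean of the genotypes with IL-10 added, the change from 45 to 180 min was 0.78 ± 0.35 (adjusted p = 0.0958). It passed without the second wild-type array at 180 min, at 1.12 (adjusted p = 0.0139), and with a pseudocount of 200.

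Tnip1, the gene of the A20 partner ABIN-1, gave 964.9, 1027, 984.2 and 1735 at rest, and 1269 and 1107 after 45 min of LPS in wild type. At 180 min it gave 7675 and 7612. The 45-min arrays lay within the resting range only through the resting array at 1735, and above the other resting arrays. The 180-min arrays lay far above all of them. The change from rest was 0.05 ± 0.17 at 45 min, with a 95% interval of -0.31 to 0.41, and 2.69 ± 0.17 at 180 min (adjusted p = 8.06e-12). The 45-min change did not pass in any of 14 alternative fits, leaving out the resting array at 1735 among them. Between 45 and 180 min Tnip1 rose by 2.64 ± 0.20 in wild type and by 2.11 ± 0.20 in IL-10-/-, or 6.23-fold and 4.31-fold. Its arrays in all arms ran from 1101 to 2002 at 45 min and from 6603 to 9540.5 at 180 min. Against rest, the A20 gene passed at 45 min and its partner's gene did not; the difference between the genes was not tested.

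Tnfaip2, a gene named for its induction by TNF, gave 1967, 1061, 1051.5 and 1242 at rest. After 45 min of LPS in wild type it gave 3962 and 5806, and after 180 min 16689 and 21782.5. The 3 groups did not overlap. It rose by 1.86 ± 0.22 at 45 min (adjusted p = 1.15e-06) and by 3.84 ± 0.22 at 180 min (adjusted p = 1.01e-12), or 14.3-fold. The later step was 1.98 ± 0.25 in wild type and 1.77 ± 0.25 in IL-10-/-. Among the 16 group means the 6 groups at 180 min held the top 6 places, from 14845 upward on single arrays, and resting was lowest.

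Traf1, an adaptor that pairs with Traf2, gave 216.9, 41.4, 196.8 and 219.5 at rest. It gave 53.4 and 81.2 after 45 min of LPS in wild type, and 1793 and 2428 after 180 min. The early arrays overlapped the resting ones, and the late arrays stood far above both. The change at 45 min was -0.79 ± 0.39 and did not pass (adjusted p = 0.182). It passed without the resting array at 41.4, at -1.16 (adjusted p = 0.0222), so a single resting array decides that call. At 180 min Traf1 was higher by 3.41 ± 0.39 (adjusted p = 2.42e-07). Between the times it rose by 4.20 ± 0.45 in wild type and by 3.56 ± 0.45 in IL-10-/-, the steepest late rise of the 9 genes in both genotypes. The signals at 45 min are dim, from 18.4 to 351.0 over all arms.

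Birc3, the gene of cIAP2, gave 858.8, 609.5, 657.6 and 673.6 at rest, 1607 and 1745 after 45 min of LPS in wild type, and 2688 and 3197 after 180 min. Each step lay above the range of the one before. It rose by 1.21 ± 0.17 at 45 min (adjusted p = 1.27e-05) and by 2.00 ± 0.17 at 180 min (adjusted p = 1.1e-09). The step from 45 to 180 min was 0.79 ± 0.19 in wild type (adjusted p = 0.00619) and 0.77 ± 0.19 in IL-10-/- (adjusted p = 0.0065). Without the first array at 45 min or the second at 180 min the wild-type step no longer passed, with adjusted p = 0.0621 and 0.0861. In IL-10-/- it no longer passed without the second array at either time, with adjusted p = 0.129 and 0.082.

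Birc2, the gene of cIAP1, gave 393.2, 270.8, 332.4 and 272.5 at rest. In wild type it gave 357.8 and 243.4 after 45 min, and 615.5 and 426.9 after 180 min. The 45-min and resting arrays overlapped. The change from rest was -0.07 ± 0.26 at 45 min and 0.63 ± 0.26 at 180 min (adjusted p = 0.0616), and neither passed. The latter passed with a pseudocount of 200, with a filter at 500, with quantile normalization and without the first resting array, with adjusted p from 0.0352 to 0.0475. The later step was 0.70 ± 0.30 in wild type, which did not pass, and 0.92 ± 0.30 in IL-10-/- (adjusted p = 0.0335). The IL-10-/- call was lost without any 1 of its 4 arrays (adjusted p from 0.0738 to 0.212), without a filter (0.055) and with the mean of both Birc2 probe sets (0.0997). With IL-10 added, over 3 genotypes, Birc2 rose from 45 to 180 min by 0.56 ± 0.17 (adjusted p = 0.0126). That call was lost with the mean of both probe sets (0.0743) and without the first wild-type array at 180 min (0.063). The second probe set was dimmer and passed in none of the comparisons given here. With IL-10 added at 45 min in wild type it went from 142.1 and 114.2 to 290.2 and 263.7. The brighter one there went from 357.8 and 243.4 to 251.7 and 201.3. At 180 min in wild type their means went from 196 to 308 and from 521 to 384, with overlap between the arms. In IL-10-/- and IL-6-/- at 45 min the means of both were higher with IL-10.

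Traf2, the adaptor that holds the cIAP proteins at the TNF receptor, gave 638.8, 954.4, 726.7 and 889.6 at rest. It gave 794.9 and 671.0 at 45 min and 1014 and 1288 at 180 min of LPS in wild type. The 180-min pair lay above the resting range and the 45-min pair within it. Its change from rest was -0.11 ± 0.24 at 45 min and 0.50 ± 0.24 at 180 min (adjusted p = 0.12). With IL-10 added, over 3 genotypes, it rose from 45 to 180 min by 0.58 ± 0.16 (adjusted p = 0.00701).

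Peli1, the ubiquitin ligase gene, gave 299.4, 321.4, 328.3 and 304.7 at rest; the resting arrays differed little. In wild type it gave 651.1 and 623.8 after 45 min of LPS and 2972 and 3343 after 180 min, and none of these groups overlapped. It rose by 0.92 ± 0.18 at 45 min (adjusted p = 0.000888) and by 3.14 ± 0.18 at 180 min (adjusted p = 1.1e-12), or 8.81-fold. From 45 to 180 min it rose by 2.22 ± 0.21 in wild type and by 2.95 ± 0.21 in IL-10-/-.

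Irak1, the receptor-proximal kinase gene, ran the other way. It gave 595.2, 765.3, 797.8 and 608.1 at rest and 580.2 and 777.1 after 45 min of LPS in wild type, and then 352.4 and 452.1 after 180 min. The 180-min pair lay below all other arrays of these groups. Irak1 fell by 0.71 ± 0.20 on the log2 scale from rest to 180 min (adjusted p = 0.00684), to 0.611 of its resting level on that scale. Without the first wild-type array at 180 min the change was -0.55 and did not pass (adjusted p = 0.125). From 45 to 180 min it was -0.68 ± 0.23 in wild type (adjusted p = 0.048) and -0.62 ± 0.23 in IL-10-/- (adjusted p = 0.064). The wild-type call was lost without a filter (adjusted p = 0.0665), with quantile normalization (0.0847), and without the second array at 45 min (0.318) or either array at 180 min (0.303 and 0.0637). The IL-10-/- change passed with a filter at 500 (adjusted p = 0.0384). Over 3 genotypes with IL-10 added, Irak1 fell by 0.67 ± 0.13 (adjusted p = 0.000296). In all arms its arrays ran from 514.5 to 777.1 at 45 min and from 320.9 to 511.8 at 180 min.

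From 45 to 180 min of LPS, 5 of the 9 genes were higher and 1 lower in wild type, where 13.9% of probe sets were called, with a median of 0.84 against -0.14. In IL-10-/- 6 were higher and 0 lower, where 17.1% were called, with a median of 0.92 against 0.03. The difference of this step between IL-10-/- and wild type was called for 0 of the 9 genes and for 1.12% of probe sets. At an unadjusted p under 0.05 it was 1, Peli1, with 0.73 ± 0.29 (adjusted p = 0.348, limma). With IL-10 added, over the mean of the 3 genotypes, 7 genes were higher at 180 min, 1 was lower and 1 did not pass, where 32.8% of probe sets were called.

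Group means of the late genes were alike over the 16 groups. Tnip1 correlated with Peli1 at a Pearson r of 0.960 and with Traf1 at 0.958, and with Irak1 at -0.942. These are descriptions over 16 groups that share the same time course. Tnfaip3 correlated at 0.464 with Tnip1 and at 0.804 with Birc3. Among 6069 other genes, those most like Tnfaip3 were Il1b (0.968), the cytokine IL-1 beta, and the inhibitor genes Nfkbiz (0.949) and Nfkbia (0.943). Those most like Tnip1 were Snx10 and the TNF receptor gene Tnfrsf1b (both 0.988) and the chemokine gene Ccl5 (0.980). Tnfaip2 was most like Gch1 (0.986), Prpf38b (0.979) and Sod2 (0.972), and Traf1 was most like Psmd10 (0.972), Vasp (0.965) and Acod1 (0.962). Birc3 followed the chemokine gene Ccl4 (0.966), the prostaglandin synthase gene Ptgs2 (0.965) and Txnrd1 (0.956). Peli1 followed Mtdh (0.977), Pcdh7 and Stx6 (both 0.971). Irak1 followed Vps37b (0.976), Trim47 (0.975) and Apobec1 (0.972).

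The genotype comparison under LPS alone sets IL-10-/- cultures beside wild-type cultures. Whether a difference comes from the cells' own IL-10 or from another difference between the cultures was not tested. After 45 min, 0 of the 9 genes differed between IL-10-/- and wild type (limma), where 0.377% of probe sets were called. At an unadjusted p under 0.05 it was 1, Traf1, with signals of 244.6 and 351.0 in IL-10-/- against 53.4 and 81.2 in wild type. The groups did not overlap, and the difference was 1.56 ± 0.45 (adjusted p = 0.215). With IL-10 supplied to both genotypes for 45 min, Traf1 group means were 115.4 in IL-10-/- and 23.8 in wild type. That difference was 1.06 ± 0.45 (adjusted p = 0.629, limma). The single IL-6-/- array under LPS alone at 45 min gave 204.6, also above wild type. After 180 min 0 of the 9 again passed, where 2.87% of probe sets were called, and at an unadjusted p under 0.05 it was 1, Peli1. It gave 5637 and 4766 in IL-10-/- against 2972 and 3343 in wild type, again without overlap. The difference was 0.71 ± 0.21, or 1.63-fold (adjusted p = 0.0703). With a pseudocount of 200 its adjusted p was 0.0374 and with a filter at 500 it was 0.0423. Traf1 at 180 min gave 3777 and 4222 in IL-10-/- against 1793 and 2428, a difference of 0.92 ± 0.45 (adjusted p = 0.42). The 95% interval of the difference at 180 min ran from -0.54 to 0.29 for Tnip1 and from -0.37 to 0.43 for Birc3.

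Adding IL-10 to LPS for 180 min called 0 of the 9 genes in wild type, with 0 at an unadjusted p under 0.05 (limma), where 0.134% of probe sets were called. In IL-10-/- it called 1, Peli1, where 3.54% were called. Peli1 gave 5637 and 4766 under LPS alone and 3058 and 2611 with IL-10 in IL-10-/-, and the pairs did not overlap. It fell by 0.86 ± 0.21 on the log2 scale (adjusted p = 0.014), to 0.549 of its level. Without the first LPS array the change was -0.74 (adjusted p = 0.21), and without the second LPS + IL-10 array it was -0.75 (adjusted p = 0.216), so the call rests on those arrays. In wild type Peli1 gave 2972 and 3343 without IL-10 and 3397 and 3354 with it, a change of 0.10 ± 0.21. In IL-6-/- it gave 2510 in the single array without and 3373 and 2033 with IL-10. With IL-10 added, Peli1 in IL-10-/- and in wild type differed by -0.25 ± 0.21 (95% interval -0.68 to 0.18).

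**Figure D3:**
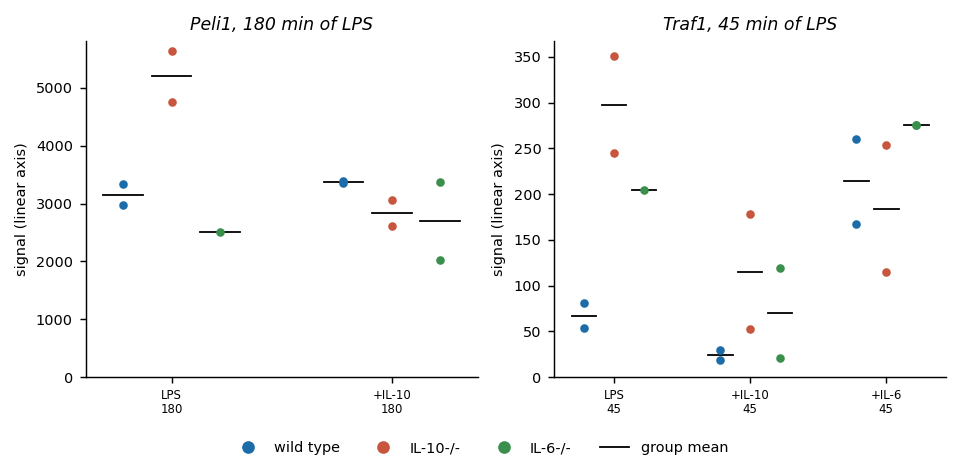
Signals of Peli1 after 180 min (left) and of Traf1 after 45 min (right) on linear axes, by arm and genotype, with points for arrays and bars for group means. The 2 IL-10-/- arrays under LPS alone, at 4766 and 5637, are the highest Peli1 values, and the Traf1 arrays with IL-10 lie between 18.4 and 177.9.

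At 180 min the effect of added IL-10 in IL-10-/- minus that in wild type passed for 0 of the 9 genes, where 0.559% of probe sets were called. At an unadjusted p under 0.05 it was 1, Peli1, with -0.96 ± 0.29 (adjusted p = 0.234, limma). So Peli1 passed in one genotype and not in the other, while the difference between them did not pass. Several Peli1 results share the IL-10-/- arrays under LPS alone at 180 min and are not independent. They are its genotype difference under LPS, its fall with IL-10, this effect difference and the difference of the late step. Traf1 in IL-10-/- gave 3777 and 4222 without and 2705 and 1903 with IL-10, a change of -0.80 ± 0.45 that did not pass (adjusted p = 0.649). Over the mean of the 3 genotypes, added IL-10 at 180 min called 0 of the 9 genes, where 3.82% of probe sets were called. At an unadjusted p under 0.05 it was 1, Birc3, with 0.31 ± 0.12 (adjusted p = 0.24). Birc3 in IL-6-/- gave 2678 without and 4034.5 and 3691.5 with IL-10. For Tnip1 the mean change was 0.17 ± 0.12, and for Tnfaip3 it was -0.28 ± 0.38 (95% interval -1.06 to 0.51).

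**Figure D4:**
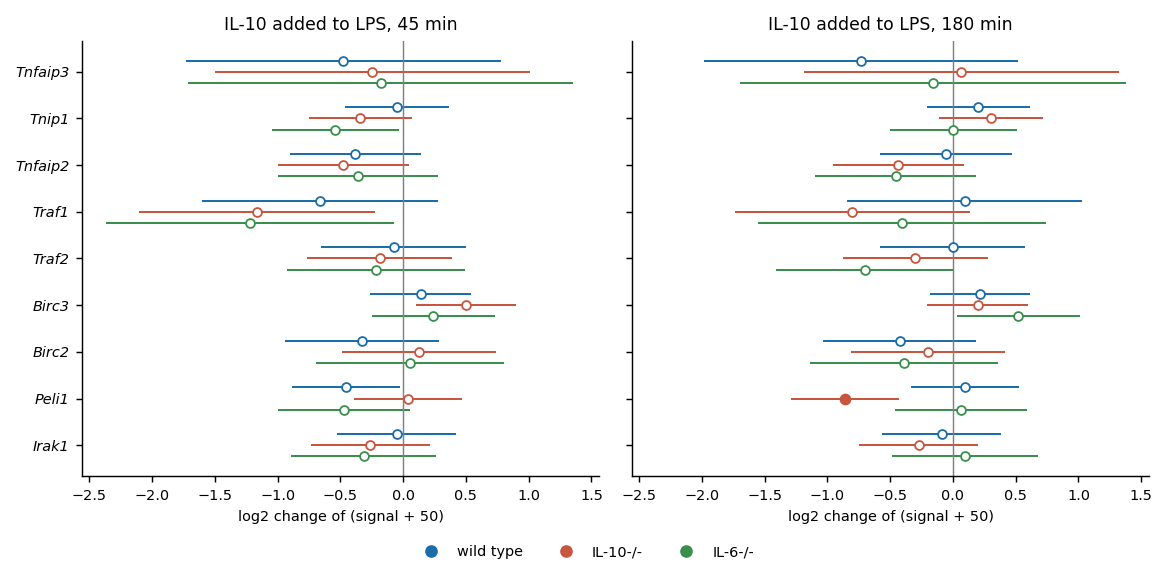
Log2 change of signal plus 50 on adding IL-10 to LPS for 45 min (left) and 180 min (right), by genotype, with 95% intervals. The filled point, Peli1 in IL-10-/- at 180 min (-0.86), is the one that passed an adjusted p of 0.05. Traf1 at 45 min lies below 0 in all 3 genotypes.

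At 45 min, adding IL-10 called 0 of the 9 genes over the mean of the 3 genotypes, where 1.03% of probe sets were called. At an unadjusted p under 0.05 there were 5 (limma): Traf1, Tnip1, Tnfaip2 and Peli1, lower, and Birc3, higher. The share of all probe sets at that unadjusted level was not counted, so the 5 cannot be set against the 1.03%. Traf1 with IL-10 gave 18.4 and 29.2 in wild type, 177.9 and 52.9 in the IL-10-/- arrays, and 119.5 and 20.5 in the IL-6-/- arrays. Without cytokine it gave 53.4 and 81.2, 244.6 and 351.0, and 204.6 in the same order. In each genotype both arrays with IL-10 lay below those without, and the mean change was -1.02 ± 0.28 (adjusted p = 0.113). It passed without the first IL-10-/- array or the first IL-6-/- array of the IL-10 arm, with adjusted p = 0.0402 and 0.0271. Tnfaip2 changed by -0.41 ± 0.16 (adjusted p = 0.611) and Birc3 by 0.29 ± 0.12 (adjusted p = 0.753). Tnip1 changed by -0.05 ± 0.20 in wild type, -0.34 ± 0.20 in IL-10-/- and -0.54 ± 0.24 in IL-6-/-, the last against 1 array. Peli1 group means with and without IL-10 were 449.9 and 637.4 in wild type and 644.8 and 630 in IL-10-/-. In IL-6-/- they were 597.4 and 839.8, the latter from 1 array. So neither fall was alike in the genotypes.

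IL-6, a cytokine that like IL-10 signals through STAT3, was added for 45 min. It called 0 of the 9 genes over the mean of the 3 genotypes, with 0 at an unadjusted p under 0.05 (limma), where 0.547% of probe sets were called. Traf1 with IL-6 gave 260.7 and 167.3 in wild type, 253.7 and 114.6 in the IL-10-/- arrays, and 275.8 and 275.7 in the IL-6-/- arrays. It lay above LPS alone in wild type and IL-6-/- and overlapped it in IL-10-/-, with a mean change of 0.30 ± 0.28. Set directly against each other at 45 min, the IL-10 and IL-6 arms differed for 1 of the 9 genes, where 0.219% of probe sets were called. That gene was Traf1, lower with IL-10 by -1.31 ± 0.26 on the log2 scale, or at 0.402 of the IL-6 arm (adjusted p = 0.0253). All 6 Traf1 signals of the IL-10 arm lay under the filter level of 200, and the change was -1.88 with a pseudocount of 10 and -0.67 with one of 200, where it did not pass (adjusted p = 0.0543). The call was lost with a pseudocount of 200 (adjusted p = 0.0543), with eBayes without a trend (0.0574) and in 8 of 13 fits that each left out 1 array. Those 8 are listed in the section on processing. Of the 13, 1 left out a resting array, which belongs to neither arm. The other 8 genes gave changes between -0.40 and 0.09.

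Between IL-6-/- and wild type, over the mean of the 3 arms with added cytokine, 0 of the 9 genes passed, where 2.25% of probe sets were called. At an unadjusted p under 0.05 it was 1, Tnfaip3, at 0.78 ± 0.35 (adjusted p = 0.306, limma). The 14 stromal genes summed to between 7252 and 7630 on the IL-6-/- arrays of these arms. In wild type they summed to between 10311 and 12579, and their part in the genotype differences was not tested. Under LPS alone, where IL-6-/- had a single array, Tnip1 gave 2002 at 45 min against 1269 and 1107 in wild type, a difference of 0.73 ± 0.24 (adjusted p = 0.644).

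Other genes of the pathway were read from a list of 47 genes of the Toll-like receptor 4 and TNF receptor pathways, of which 25 were on the array and tested. At 45 min of LPS 3 were higher and 1 lower than at rest, a share near the 16.7% of all probe sets called. At 180 min 14 were higher and 2 lower, where 33.8% of probe sets were called. The kinase gene Map3k8 (3.69 ± 0.25) and the caspase-8 regulator Cflar (3.32 ± 0.47) rose most at 180 min, and Casp8 (-0.87 ± 0.28) and Rbck1 (-0.73 ± 0.18) fell. At 45 min Tank, which encodes a TRAF-binding protein, rose by 1.76 ± 0.25 and Cd14 by 0.78 ± 0.16, and the TNF receptor gene Tnfrsf1a fell by 0.55 ± 0.17. The list's median change was 0.15 at 45 min and 0.83 at 180 min, against 0.03 and -0.09 over all probe sets. From 45 to 180 min 10 were higher in wild type and 8 in IL-10-/-, and 0 were lower in either. Of all probe sets 13.9% and 17.1% were called in the same order.

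Of 11 NF-kappaB subunit and inhibitor genes 9 were tested. Of these, 3 were higher at 45 min and 7 at 180 min, where 16.7% and 33.8% of all probe sets were called, and 0 were lower at either time. The inhibitor genes Nfkbiz (4.95 ± 0.21 and 4.71 ± 0.21) and Nfkbia (3.37 ± 0.25 and 3.51 ± 0.25) rose most at both times. Between IL-10-/- and wild type at 180 min of LPS, 2 of the 25 pathway genes and 1 of these 9 genes passed. Of the 9 adaptor and brake genes 0 passed, and 2.87% of all probe sets were called. Those that passed were Map3k8 (-2.62 ± 0.29), Tnfrsf1a (-1.22 ± 0.20) and the inhibitor-like gene Bcl3 (-2.30 ± 0.31), all lower in IL-10-/-. A difference between the lists was not tested. Adding IL-10 for 180 min to IL-10-/- cells raised the same 3, by 2.78 ± 0.29, 1.07 ± 0.20 and 2.17 ± 0.31, and these comparisons share the IL-10-/- arrays under LPS alone. Sqstm1, the gene of a ubiquitin-binding adaptor, fell by 0.96 ± 0.16 with IL-10 added to IL-10-/- cells for 180 min (adjusted p = 0.000237).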

How the data were processed

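The values are the probe set intensity on a linear scale as deposited by the authors, from Affymetrix MG-U74Av2 arrays. MAS5 produced them per the submitters' processing notes, with a version not given in the sources used here. The trimmed mean lay between 500.29 and 500.4 on each of the 34 arrays, and no further scaling was done. Array medians ran from 158.0 to 237.3.

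Of the arrays, 32 entered a group. One title without a genotype and 1 array whose labels disagree on its time entered no comparison. The 66 control probe sets were left out, and 8224 probe sets reaching 200 on 2 or more grouped arrays were tested. A pseudocount of 50 was added before taking log2. With limma 3.58.1 (R 4.3.3), 1 mean was fitted for each of 16 groups (lmFit, eBayes with a trend, 16 residual degrees of freedom), and all p-values are 2-sided and adjusted by Benjamini-Hochberg over the tested probe sets of a comparison. Groups of 1 array borrow the spread of the rest. The script was tested on simulated data.

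The members and gene lists were chosen with earlier results of these data known. Named genes were the members, each by its probe set with a single symbol and the highest mean, up to 2 rises and 2 falls of a pathway list per comparison, and the 3 genes most like each member in Pearson correlation over group means. Alternatives were pseudocounts of 10 and 200, a filter at 500 or none, quantile normalization, no trend, a replicate block, averaging a gene's probe sets, wild type and IL-10-/- alone, and each array left out. Probe positions and the protein sequences of the members were not used here. The number of arrays limits the precision.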

Additional observations from a re-analysis of the deposited data

Results flagged for a closer look

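In the resting group of 4 arrays, 2 members had an array far from the other 3 by Dixon's criterion. Tnip1 gave 1734.7 in resting replicate 4 against 964.9 to 1027 in the others. Traf1 gave 41.4 in resting replicate 2 against 196.8 to 219.5. Chance alone marks about 1 in 20 such groups, and 10 probe sets were looked at.

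The 2 arrays without a settled group were used in no comparison, and some members on them lay above their highest resting array. On the array without a genotype in its title, Tnfaip3 gave 6916.1, Tnip1 1846.5, Tnfaip2 5281.9, Traf1 307.2, Birc3 1594.5 and Peli1 833.9, while Traf2 (453.2), Birc2 (318.4) and Irak1 (710.8) did not exceed their highest resting value. On the array whose title says 45 min and whose protocol says 180 min, Tnfaip3 gave 13026.2, Tnip1 8947.3, Tnfaip2 21828.2, Traf1 2487.2 and Traf2 1364.8. The same array gave Birc3 at 3613.2, Birc2 at 488.4 and Peli1 at 3380.7, and Irak1, at 378.7, did not exceed its highest resting value.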

How the results depend on the processing

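Over 2367 recomputed member values, 2286 stayed on the same side of the threshold or within their standard error, 30 lost a call, 18 gained one, 33 without a call moved by more than the standard error, and 0 reversed. Between IL-10-/- and wild type at 180 min of LPS, 1 member, Peli1, was called with a pseudocount of 200, with a filter at 500 and with the replicate block. For IL-10 added at 45 min the replicate block called 2 members, Traf1 and Tnip1. With the block Peli1 had an adjusted p of 0.0264, Traf1 0.0374 and Tnip1 0.0481. From 45 to 180 min the block also brought Birc2 in wild type (0.044), Irak1 in IL-10-/- (0.04) and, with IL-10 added, Tnfaip3 (0.0169) past the threshold. Same-numbered arrays correlated in their deviations at 0.0204 to 0.441 over 23 within-genotype pairs of groups (median 0.12). All were above 0 and 13 exceeded 0.1. That level is a chosen mark and not a test. Pairing was not established, and an effect shared by same-numbered arrays was not tested. Over all 78 pairs of groups, within and between genotypes, 46 exceeded 0.1, so such correlation was not limited to a single genotype. For IL-10 against IL-6 a pseudocount of 200 or no trend left 0 members.

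Leaving out single arrays gave 4 to 5 members for LPS at 45 min, 6 to 8 at 180 min, 4 to 6 for 180 against 45 min in wild type and in IL-10-/-, and 7 to 9 with IL-10 added. It gave 0 to 1 for added IL-10 at 180 min in IL-10-/-, for added IL-10 at 45 min and for IL-10 against IL-6, and 0 in all fits of the other comparisons. Traf1 in the last of these was lost without either wild-type IL-10 array, the first wild-type IL-6 array, the second IL-6-/- IL-10 array, either IL-6-/- IL-6 array, the second IL-10-/- IL-10 array or the first IL-10-/- IL-6 array, with adjusted p from 0.0703 to 0.156. The lone IL-6-/- arrays under LPS could not be left out of the means over 3 genotypes. With 2 arrays in a group, changes of dim genes such as Traf1 at 45 min depend on the pseudocount.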
